A study of Jatropha curcas with 15 samples.

Results

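AP1, AP2 and AP3, the *J. curcas* homologs of the *Arabidopsis* genes *APETALA1*, *APETALA2* and *APETALA3*, were followed in inflorescence buds over 5 time points after cytokinin treatment. Each gene was measured by the single array probe that the study's gene table assigns to it, CUST_7819 for AP1, CUST_10026 for AP2 and CUST_10541 for AP3. These are 3 of the 41651 probes on the array, and all 3 were among the 34449 probes tested. The buds came from field-grown plants 1 year old that were sprayed with 1 mM 6-benzylaminopurine (6-benzyladenine, BA), a synthetic cytokinin, in a solution with the wetting agent Tween-20. Sampling took place at 0 h and then 3, 12, 24 and 48 h after spraying. Each time point had 3 biological replicates, each measured on a one-colour array of its own. The 0-h buds are the only reference. No unsprayed buds of the later hours were measured, and 12 h falls at the opposite time of day from 0, 24 and 48 h, so BA and time of day cannot be told apart. The probes report RNA of whole buds, in which fewer cells of a type and less RNA per cell cannot be told apart.

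In the ABC model of flower development, combinations of transcription factors give each whorl of the flower its identity. A-class genes specify sepals, A- and B-class genes together specify petals, B- and C-class genes specify stamens, and C-class genes alone specify carpels. D-class genes act in ovules, and the E-class SEPALLATA proteins join the other classes in complexes. In *Arabidopsis*, *AP1* encodes a MADS-box factor that first makes a floral meristem from a lateral meristem and then specifies sepals and petals. *AP2* is the A-class member outside the MADS-box family, is held down by the microRNA miR172, and restricts the C-class gene *AGAMOUS* (*AG*) from the outer whorls. *AP3* encodes a MADS-box factor that works only with its partner *PISTILLATA* (*PI*) to specify petals and stamens.

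The 2 probe sequences held here are shown because each measurement rests on a single 60-base stretch of the transcript. They are printed 5′ to 3′ in lower case, as in the study's probe list.
AP2 (CUST_10026): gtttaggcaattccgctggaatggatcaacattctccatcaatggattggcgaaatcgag
AP3 (CUST_10541): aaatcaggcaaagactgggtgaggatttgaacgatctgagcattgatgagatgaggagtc
Both have a GC content of 45%, and neither shared a 20-base run with any other of the 2901 probes whose sequences were searched. The array holds more probes than transcripts, and further probes of these genes were not sought. The sequence of the AP1 probe was not used here. The gene table pairs AP1 with AT1G69120 and AP2 with AT4G36920, which are the *Arabidopsis* loci of those names. It pairs AP3 with AT1G30950, which is the *Arabidopsis* locus of *UNUSUAL FLORAL ORGANS*, an F-box gene that acts upstream of *AP3*. The name AP3 is kept here as the study gives it. The probe was not compared with a genome or with protein sequences, so whether the name or the locus is the error was not tested.

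Values below are log2 intensities minus the 75th percentile of their array, called normalized log2 values, so that a difference of 1 is a factor of 2. Levels were not compared between probes, since probes differ in how brightly they label. The share of probes well above background ranged from 78.9% to 84.0% over the arrays, no spot was saturated, and replicates correlated at 0.9879 to 0.9965 across the tested probes, lowest at 12 h. The 12-h replicate 3 stood apart, with 3.91% of probes at least 2-fold from the mean of the other 12-h replicates, against 0.720% to 3.02% on the other 14 arrays. The slides were partly confounded with time, since all 0-h arrays lay on slide 1, scanned first, and all 12-h arrays lay on slides 2 and 3, scanned 6 days later. The main results at 12 h are given with and without 12-h replicate 3, and with slide as a fixed block. Since no slide held both 0-h and 12-h arrays, the slide-block value at 12 h joins differences within slides 1 and 2. These are the single 3-h array of slide 1 against 0 h, and the 12-h against the 3-h arrays of slide 2. The 12-h replicate 3, on slide 3, takes no part in that value. Of the bud markers, AP1, AP3, AG, STK, SEP3 and the meristem gene STM were well above background on 15 of 15 arrays, whereas PI was so on 5 of 15. The seed marker oleosin 2 was well above background on none of the 0-h and 3-h arrays and on all 9 later arrays, and the green-tissue marker, a light-harvesting complex I protein, on 15 of 15.

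All 3 genes passed the main test of change over the time course. AP3 fell 4.45-fold at 12 h and rose 4.12-fold from 12 h to 24 h, and AP1 fell 1.99-fold at 12 h. AP2 fell 1.51-fold at 3 h, left that level by 12 h and was 1.48-fold above its 0-h level at 48 h. With scan day as a fixed block none of these changes from 0 h passed limma's test, while the steps of AP3 to 24 h and of AP2 to 12 h did. The adjusted p of limma's moderated F test over the time course was 0.000371 for AP2, 0.0138 for AP3 and 0.0342 for AP1. Passing this test was common on the array, where 56.2% of all tested probes did so. AP1 kept an adjusted p of at most 0.05 in 12 of 15 fits with an array left out and in 11 of 14 other alternatives. Called against 0 h at 1 or more time points, with an adjusted p of at most 0.05 and a change of at least 2-fold, was 1 of the 3 members, AP3, and 12.9% of all tested probes.

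**Figure D1:**
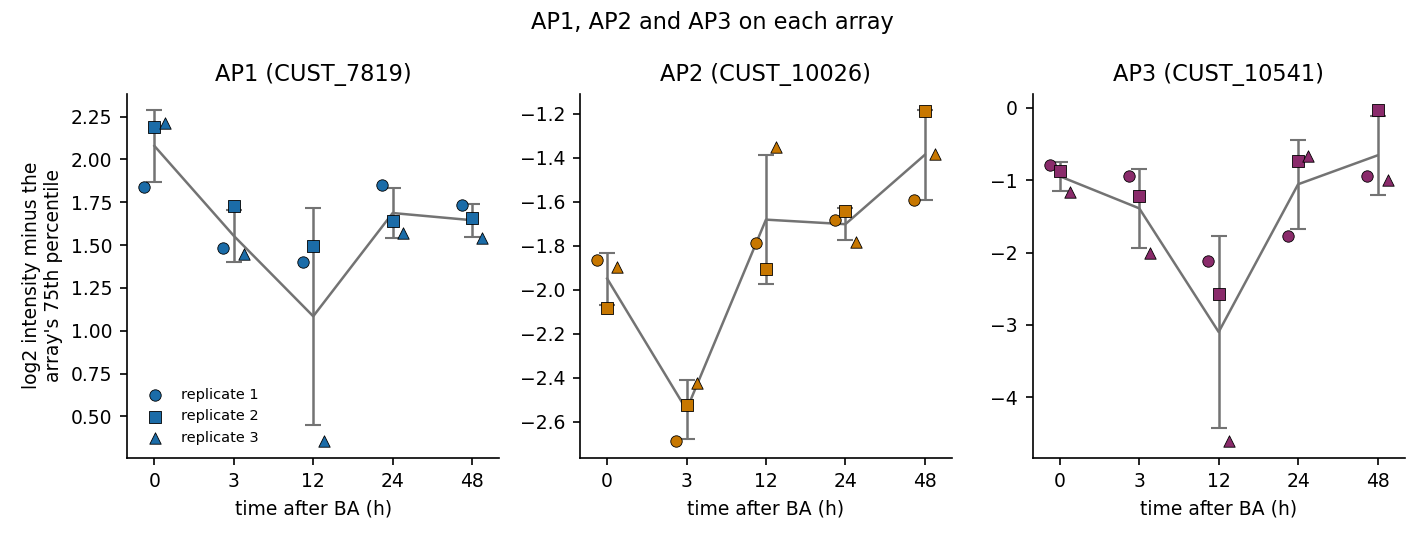
Normalized log2 value (vertical axis, scaled separately for each gene) of AP1, AP2 and AP3 on each of the 15 arrays against time after BA (horizontal axis, equally spaced time points). Circles, squares and triangles are replicates 1, 2 and 3, lines join the means and error bars are the SD (n = 3). AP1 and AP3 were lowest at 12 h, with replicate 3 far below replicates 1 and 2, and AP2 was lowest at 3 h.

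For AP3, the B-class gene, the normalized log2 values at 0 h were −0.79, −0.88 and −1.17 in replicates 1, 2 and 3. At 3 h they were −0.95, −1.22 and −2.002, and at 12 h −2.11, −2.57 and −4.61. All 3 arrays of 12 h lay below all 12 arrays of the other time points, although 12-h replicate 1 was only just below 3-h replicate 3. At 24 h the values were −1.77, −0.74 and −0.66, and at 48 h −0.94, −0.03 and −0.999. These 6 late arrays spanned the 0-h range, with 24-h replicate 1 below it and 48-h replicate 2 clearly above it. A probe whose 12-h arrays all lie below every other array was not rare, at 8.06% of tested probes.

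The mean of AP3 was −0.95 ± 0.20 (SD, n = 3) in the 0-h buds. In the 12-h buds it was −3.10 ± 1.33 (SD, n = 3). The log2 fold change was −2.15 ± 0.55 (SE), with a 95% confidence interval of −3.34 to −0.97 and a limma adjusted p of 0.00885. AP3 was the 1 member of 3 called at 12 h, where 9.03% of all tested probes were called and 5.54% were called lower. A fall at least as large was seen in 1.48% of tested probes. Intensity itself was not limiting, since the AP3 spot was well above background even on its dimmest array, where its processed intensity was 303 against a local background of 39 intensity units.

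AP3 also fell from 3 h to 12 h, by 1.71 ± 0.55 (SE) on the log2 scale (limma adjusted p 0.0250), and rose from 12 h to 24 h by 2.04 ± 0.55 (SE) (4.12-fold, limma adjusted p 0.0162). Called lower from 3 h to 12 h were 6.92% of tested probes, and called higher from 12 h to 24 h were 4.07%. All 3 calls of AP3 together were met by 963 probes, or 2.8% of those tested. The changes from 0 h at 3, 24 and 48 h were −0.44, −0.11 and 0.29, with adjusted p of 0.662, 0.913 and 0.759 in limma's test. Their intervals were −1.63 to 0.74, −1.29 to 1.07 and −0.89 to 1.47. Falls of more than 2-fold at 3 h and 24 h, and rises of more than 2-fold at 24 h and 48 h, were within the error.

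The size of the fall of AP3 rested in part on 12-h replicate 3, where the difference of AP3 from the mean of the other 12-h replicates was −2.27, a deviation matched by 0.238% of probes on that array. Without this array the change at 12 h was −1.40 (limma adjusted p 0.0225) and the step from 12 h to 24 h was 1.29 (adjusted p 0.0384), both still called, whereas the step from 3 h to 12 h was −0.95 and no longer passed the test (adjusted p 0.0885). The fall was smaller with slide as a fixed block (−0.73, adjusted p 0.525) or scan day as a fixed block (−1.49, adjusted p 0.394), and neither passed the test. With slide as a fixed block, the change at 24 h was 2.82 in place of −0.11, also without passing (adjusted p 0.203). Within slide 2, the mean of the 12-h arrays minus that of the 3-h arrays was −0.73, and within slide 3 the 24-h arrays averaged 3.55 above 12-h replicate 3. No slide held both 0-h and 12-h arrays. The slide-block value at 12 h therefore repeats the difference within slide 2, joined to 0.00045 for 3-h replicate 1 against 0 h within slide 1. The 24-h value of 2.82 adds the difference within slide 3, which rests on 12-h replicate 3. Block values and within-slide differences are thus not separate measurements.

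For AP1, the MADS-box A-class gene, the normalized log2 values at 0 h were 1.84, 2.19 and 2.21 in replicates 1, 2 and 3. They were 1.48, 1.73 and 1.45 at 3 h, and the 12-h values were 1.403, 1.495 and 0.36. All arrays of 3 h and 12 h lay below every 0-h array. At 24 h the values were 1.85, 1.64 and 1.57, and at 48 h 1.73, 1.66 and 1.54. Of the 12 arrays after 0 h, 11 lay below every 0-h array, and the exception, 24-h replicate 1, exceeded 0-h replicate 1 by 0.01. How many of all tested probes had as many arrays below was not counted, so this describes AP1 only.

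The mean of AP1 was 2.08 ± 0.21 (SD, n = 3) in the 0-h buds and 1.08 ± 0.63 (SD, n = 3) in the 12-h buds. Its log2 fold change at 12 h was −0.99 ± 0.24 (SE) (95% confidence interval −1.51 to −0.48, limma adjusted p 0.00609). It passed the test but, at 1.99-fold, fell just short of the 2-fold needed for a call. Lower by the adjusted p alone at 12 h were 2 of the 3 members, AP1 and AP3, as were 16% of tested probes. The changes at 3, 24 and 48 h were −0.52, −0.39 and −0.43, each with an SE of 0.24, and did not pass limma's test (adjusted p 0.173, 0.277 and 0.235). Neither did the steps from 3 h to 12 h (−0.47, adjusted p 0.133), 12 h to 24 h (0.60, adjusted p 0.0809) and 24 h to 48 h (−0.04, adjusted p 0.936).

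The low point of AP1 at 12 h was also set by 12-h replicate 3, whose difference from the mean of the other 12-h replicates was −1.09. Without it the change at 12 h was −0.63 (limma adjusted p 0.00495). The changes at 3, 24 and 48 h do not use this array and stayed at −0.52, −0.39 and −0.43. They then passed limma's test (adjusted p 0.0154, 0.0446 and 0.0319), as their SE, which rests on the spread at all time points, fell from 0.24 to 0.12. The step from 3 h to 12 h shrank to −0.10, and from 12 h to 24 h to 0.24. With a fixed block for slide the change at 12 h was −0.73 (limma adjusted p 0.116) and that at 24 h turned to 0.60 (adjusted p 0.457), and with one for scan day −1.10 (adjusted p 0.142). Within slide 1, 3-h replicate 1 minus the mean of the 0-h arrays was −0.59. The 12-h arrays minus the 3-h arrays of slide 2 came to −0.14, and the 24-h arrays minus 12-h replicate 3 on slide 3 to 1.33. The slide-block values join these differences and are not separate from them.

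For AP2, the A-class gene outside the MADS-box family, the normalized log2 values at 0 h were −1.86, −2.08 and −1.90 in replicates 1, 2 and 3. At 3 h they were −2.69, −2.52 and −2.43, below every 0-h array and below every later array as well. The 12-h values of −1.79, −1.91 and −1.35 overlapped those of 0 h. The values of −1.68, −1.64 and −1.78 at 24 h and of −1.59, −1.19 and −1.38 at 48 h all lay above the 0-h arrays. Thus 3 of the 12 later arrays, those of 3 h, were below every 0-h array and 8 were above, the remaining array being 12-h replicate 2. The share of all tested probes separated in these ways was not counted, so these counts describe AP2 only.

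The log2 fold change of AP2 at 3 h was −0.60 ± 0.14 (SE) (limma adjusted p 0.0178), where 6.61% of tested probes were lower by the adjusted p alone. AP2 was the 1 member of 3 to pass at this time. From 3 h to 12 h AP2 rose by 0.86 ± 0.14 (SE) (1.82-fold, limma adjusted p 0.000444), in the same interval in which AP3 fell, and 23.1% of tested probes were higher over this step by the adjusted p alone. This step of AP2 had a value of 0.63 to 0.98 and an adjusted p of at most 0.0111 under all 30 alternative ways of processing. At 48 h the change from 0 h was 0.56 ± 0.14 (SE) (limma adjusted p 0.0247), where 7.44% of tested probes were higher by the adjusted p alone. None of these changes reached 2-fold, so AP2 was called at no time point, while 2.59%, 3.18% and 2.67% of tested probes were called at 3, 24 and 48 h.

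At 12 h the change of AP2 from 0 h was 0.27 ± 0.14 (SE), with a 95% confidence interval of −0.04 to 0.58 (limma adjusted p 0.168). The 24-h change was 0.25 (adjusted p 0.256). The step from 12 h to 24 h was −0.02 (adjusted p 0.930) and that from 24 h to 48 h 0.32 (adjusted p 0.194). On 12-h replicate 3, where AP1 and AP3 were low, AP2 was 0.50 above the mean of the other 12-h replicates, and without this array its change at 12 h was 0.10. The fall at 3 h held within slide 1, where 3-h replicate 1 minus the mean of the 0-h arrays was −0.74. With slide as a fixed block the changes at 12 h and 24 h turned to −0.11 (adjusted p 0.745) and −0.47 (adjusted p 0.379), neither passing the test, and the value at 48 h cannot be told apart from slide 4, which held only 48-h arrays. The change at 48 h did not pass the test with scan day as a fixed block (0.35, limma adjusted p 0.538), and it was also lost when replicate 2 or 3 of 0 h, or replicate 2 or 3 of 48 h, was left out (adjusted p up to 0.0891). The change at 3 h was lost when replicate 1 or 3 of 0 h, or replicate 1 of 3 h, was left out (adjusted p up to 0.0736).

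**Figure D2:**
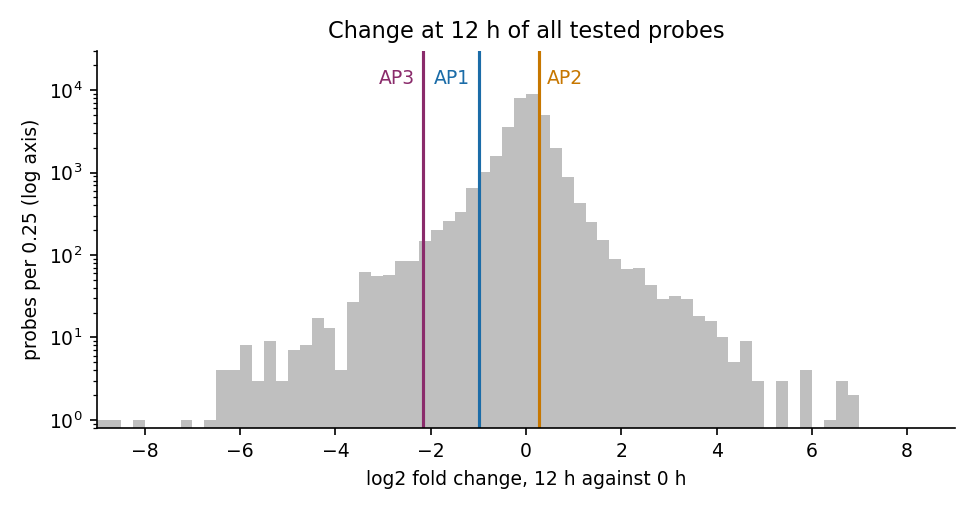
Log2 fold change at 12 h against 0 h (horizontal axis, bins of 0.25) of all 34449 tested probes, with the number of probes per bin on a log axis (vertical). Vertical lines mark AP3 at −2.15, AP1 at −0.99 and AP2 at 0.27. Falls at least as large were seen in 1.48% of probes for AP3 and 6.04% for AP1, and 25.3% of probes rose at least as far as AP2.

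Whether the members differed from each other in their change was asked with differences between probes on the same array, which are free of the scaling between arrays. At 12 h, AP2 had risen relative to AP3 by 2.42, AP1 had risen relative to AP3 by 1.16, and AP1 had fallen relative to AP2 by 1.26 on the log2 scale. Without 12-h replicate 3 these differences were 1.499, 0.77 and −0.73. In each pair, over all arrays, the 12-h arrays did not overlap the 0-h arrays. AP1 also fell relative to AP2 without overlap at 24 h (−0.64) and at 48 h (−0.996). These 5 differences each had p = 0.1 in a two-sided exact permutation test, the smallest that 3 arrays against 3 allow, and an adjusted p of 0.24 over the 12 comparisons made. The other 7 had p of 0.2 to 0.8 in the same exact test. The share of other probe pairs separated in these ways was not counted, so non-overlap describes these pairs only.

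Among the other floral organ-identity genes, the fall of AP3 at 12 h was shared by the E-class genes and by the D-class gene and not by AP2. The probes come from the study's table of homologs of *Arabidopsis* flowering genes. The study names the classes of AP1, AP2, AP3, AG and the SEPALLATA genes, and those of PI and STK were assigned here. The list was drawn up with earlier results of these data known, and holds 9 probes, of which 8 were tested. Called lower at 12 h were 5 of the 8, AP3, STK, SEP1, SEP2 and SEP3, and 0 were called higher, where 5.54% of all tested probes were called lower. The median log2 fold change of the 8 was −1.41, against 0.02 over all tested probes. At 3, 24 and 48 h none of the 8 was called, and at an adjusted p of at most 0.05 alone there were 1, 0 and 2 of them, namely AP2 lower at 3 h (6.61% of all tested probes) and AP2 and AG higher at 48 h (7.44%).

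SEEDSTICK (STK), the D-class gene of ovules, had a log2 fold change of −1.76 ± 0.47 (SE) at 12 h (limma adjusted p 0.0117). The SEPALLATA genes, cofactors of all the other classes, changed by −1.48 (SEP1), −1.35 (SEP2) and −1.60 (SEP3). For SEP1 the gene table gives AT4G34190, which in *Arabidopsis* is not a SEPALLATA locus, so that name too is the study's. AG, the C-class gene that AP2 restricts in *Arabidopsis*, changed by −0.48 (limma adjusted p 0.0620) at 12 h, and at 48 h was higher by 0.65 (adjusted p 0.0383), when AP2 was higher by 0.56. PI, the partner of AP3, was not tested, being well above background on 5 of 15 arrays. From 12 h to 24 h, 4 of the 8 were called higher, AP3, STK, SEP1 and SEP3, and 6 were higher by the adjusted p alone, against 4.07% and 12.4% of all tested probes.

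The calls at 12 h shared the limits of AP3. A fixed block for slide or for scan day left none of the 8 called at 12 h. The differences of 12-h replicate 3 from the mean of the other 12-h replicates were −1.99 for STK, −1.91 for SEP3, −1.10 for SEP1 and −0.92 for SEP2, and leaving out single arrays gave 4 to 6 called. Without that array the changes at 12 h were −1.098 (STK), −1.11 (SEP1), −1.04 (SEP2) and −0.96 (SEP3), all with a limma adjusted p of at most 0.0294. SEP3 was then short of 2-fold and 4 of the 8 were called at 12 h, while from 12 h to 24 h only AP3 and STK were called. Other markers also moved at 12 h. The light-harvesting complex I protein changed by −1.72 ± 0.32 (SE) (limma adjusted p 0.00122), and oleosin 2 went from not well above background to a normalized log2 value of −4.74 ± 1.43 (SD, n = 3). The clock gene GIGANTEA (GI), whose RNA cycles daily in *Arabidopsis*, was at −3.61 ± 0.03 (SD, n = 3) in 0-h buds, 2.82 ± 0.21 (SD, n = 3) in 12-h buds and −3.03 ± 0.26 (SD, n = 3) in 24-h buds. Their part in the changes of AP1 and AP3 was not tested. GI on 12-h replicate 3 was 2.92, between the 2.96 and 2.58 of the other 12-h replicates.

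**Figure D3:**
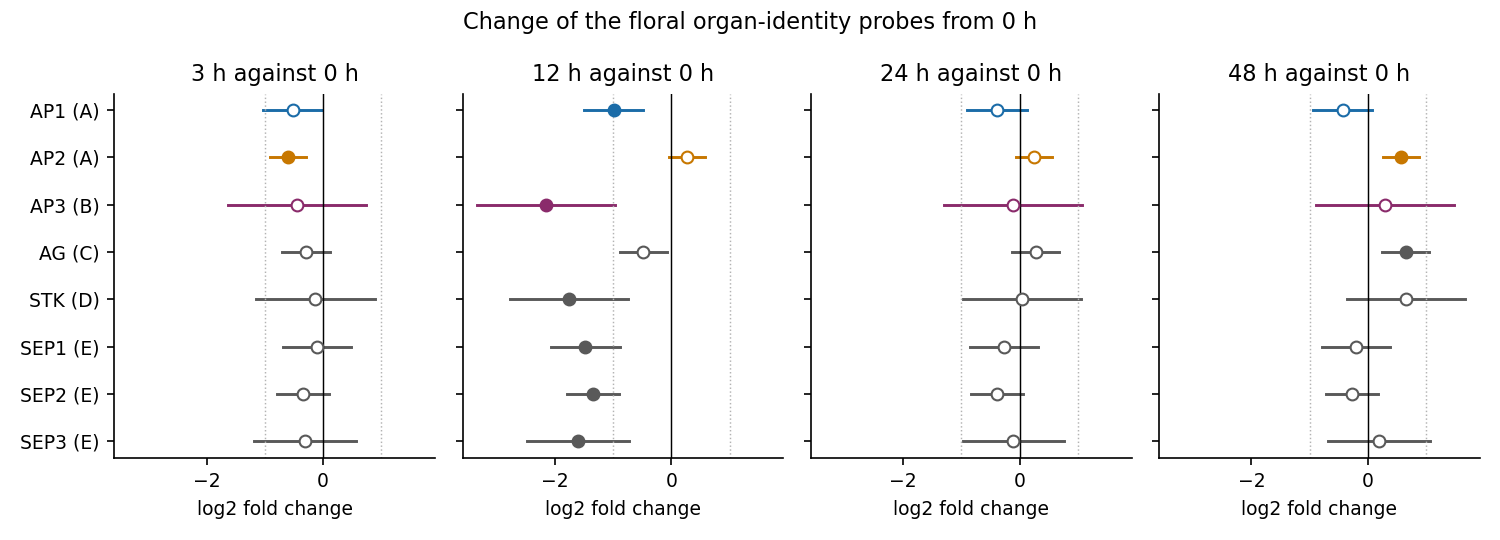
Log2 fold change from 0 h (horizontal axis) of the 8 tested floral organ-identity probes, with their class in brackets, at 3, 12, 24 and 48 h. Points are estimates from 3 arrays per time point, bars are 95% confidence intervals, filled points have a limma adjusted p of at most 0.05 and dotted lines mark 2-fold. At 12 h AP2 was the only probe to the right of 0, and 6 of the other 7 were filled.

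Of the 23 other flowering probes of the study's table, 21 were tested, and 3 were called at 12 h, where 9.03% of all tested probes were called. At that time GI was called higher, and COP1, a repressor of light signalling, and TS2, the homolog of a maize sex-determination gene, were called lower. At 3 h GI was called higher and NGA2, a gene of style development in *Arabidopsis*, lower. NGA2 was then well above background on only 1 of 3 arrays, so the size of its fall is uncertain. At 24 h TS2 was called lower, and at 48 h GI higher and TS2 lower. These are 2, 1 and 2 of the 21, beside 2.59%, 3.18% and 2.67% of all tested probes. The median log2 fold change of these 21 at 12 h was 0.02, equal to that of all tested probes at this precision. STM, which keeps meristem cells undifferentiated, changed by −0.10 at 12 h (95% confidence interval −0.52 to 0.33, limma adjusted p 0.733).

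Replicates of a time point also differed from each other in a way that AP3 shared with STK, AG and the SEPALLATA genes. Each array's deviation from the mean of its time point was taken for each gene. The deviations of AP3 and STK had the same sign on 15 of 15 arrays, and the same replicate was lowest for both at 5 of 5 time points. At 24 h, for example, AP3 was low in replicate 1 (−1.77, against −0.74 and −0.66), and so was STK (−3.56, against −2.53 and −2.71). The Pearson correlation of the deviations was 0.98 over 15 arrays and 0.97 over the 12 arrays without the 12-h time point. For AP3 and SEP3 it was 0.93 and 0.89, for AP3 and SEP1 0.90 and 0.79, for AP3 and SEP2 0.90 and 0.71, and for AP3 and AG 0.70 and 0.91.

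AP1 and AP2 did not show this outside 12 h. The correlation of AP1 with AP3 was 0.63 over 15 arrays but −0.25 over the 12 arrays without 12 h, with the same sign on 8 of 15 arrays. For AP2 and AP3 it was −0.53 and 0.03, and for AP1 and AP2 −0.70 and −0.19. For AP3 and STM it was −0.51 and −0.51, and for AP3 and GI 0.03 and 0.31. These correlations are descriptions, since values of different genes on an array come from the same buds, labelling and slide. They were computed only for the tested organ-identity genes, STM and GI. How many other tested probes follow AP3 as closely was not counted.

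**Figure D4:**
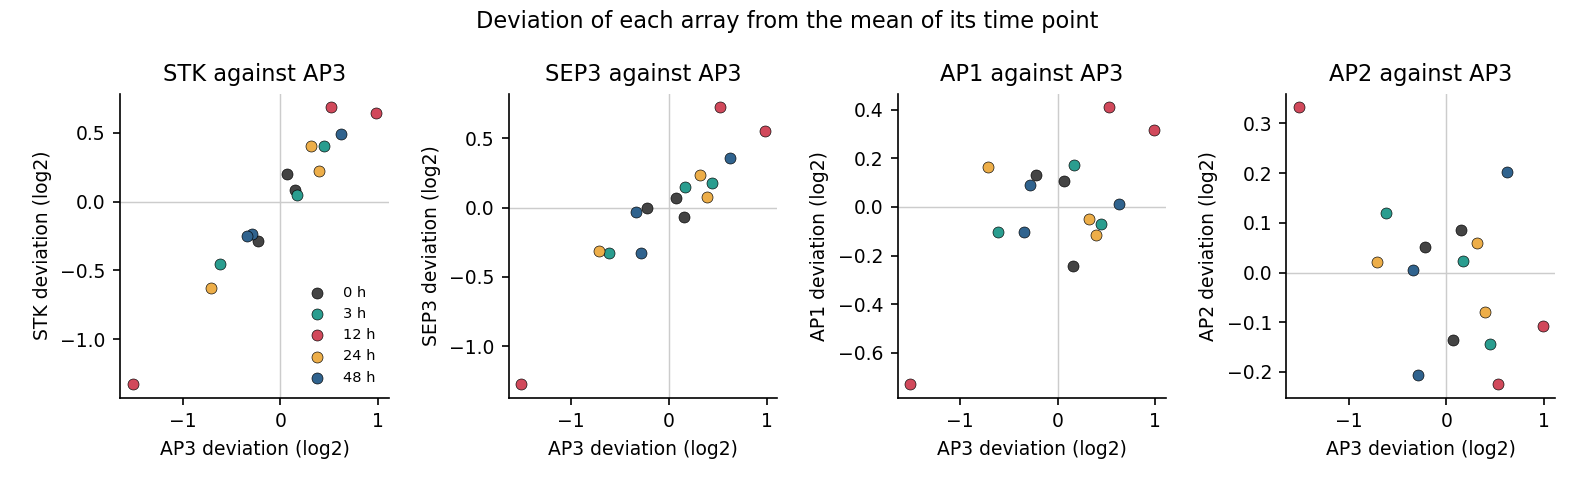
Deviation of each array from the mean of its time point (log2) for STK, SEP3, AP1 and AP2 (vertical axes) against that of AP3 (horizontal axes), 15 arrays, coloured by time point. STK and SEP3 lie along a rising line (r = 0.98 and 0.93), while AP1 and AP2 do so or fall mainly through the 12-h arrays (r = 0.63 and −0.53, and −0.25 and 0.03 without them).

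The probes whose 4 log2 fold changes were most like those of each member were sought by the root mean square (RMS) difference, both among all tested probes and among the 138 tested probes of the study's flowering and hormone tables. For AP1 the nearest of these 138 was CRY1 (CUST_11713), a blue-light receptor, with an RMS difference of 0.0643 and changes of −0.55, −0.99, −0.34 and −0.32 at 3, 12, 24 and 48 h. Only 3 of all tested probes were nearer to AP1, the unnamed CUST_27988 (0.0492), CUST_6378 (0.0528) and CUST_19663 (0.0541). SEP2 (0.214) and SDIR1 (0.215), a RING finger protein, followed in the tables.

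For AP3 the nearest in the tables were SUR1 (CUST_16559), annotated as a tyrosine aminotransferase, at 0.235, SEP3 at 0.288 and DOGT1 (CUST_14505), annotated as a UDP-glucosyltransferase, at 0.298. SUR1 changed by −0.20, −2.14, 0.19 and 0.55 at the 4 time points, and SEP3 by −0.30, −1.60, −0.11 and 0.19. Of all tested probes, CUST_7897 (0.109), CUST_26825 (0.157) and CUST_37756 (0.172) were nearest. For AP2 the nearest in the tables were EIN4 (0.232), an ethylene receptor, ATIPT9 (0.293), a cytokinin synthesis gene, and CUC3 (0.294), an organ boundary gene, at ranks 215, 985 and 1025 among all tested probes. SUR1, SEP3 and DOGT1 had ranks 20, 42 and 49 for AP3. CUST_16870 (0.0264), CUST_36722 (0.0631) and CUST_14625 (0.0889) were nearest to AP2 of all. Their estimates at 3 h were −0.59, −0.62 and −0.49, and those at the later times were positive. This likeness to AP2 follows from how they were chosen. Whether any unnamed probe belongs to the same transcript as a member was not examined.

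**Figure D5:**
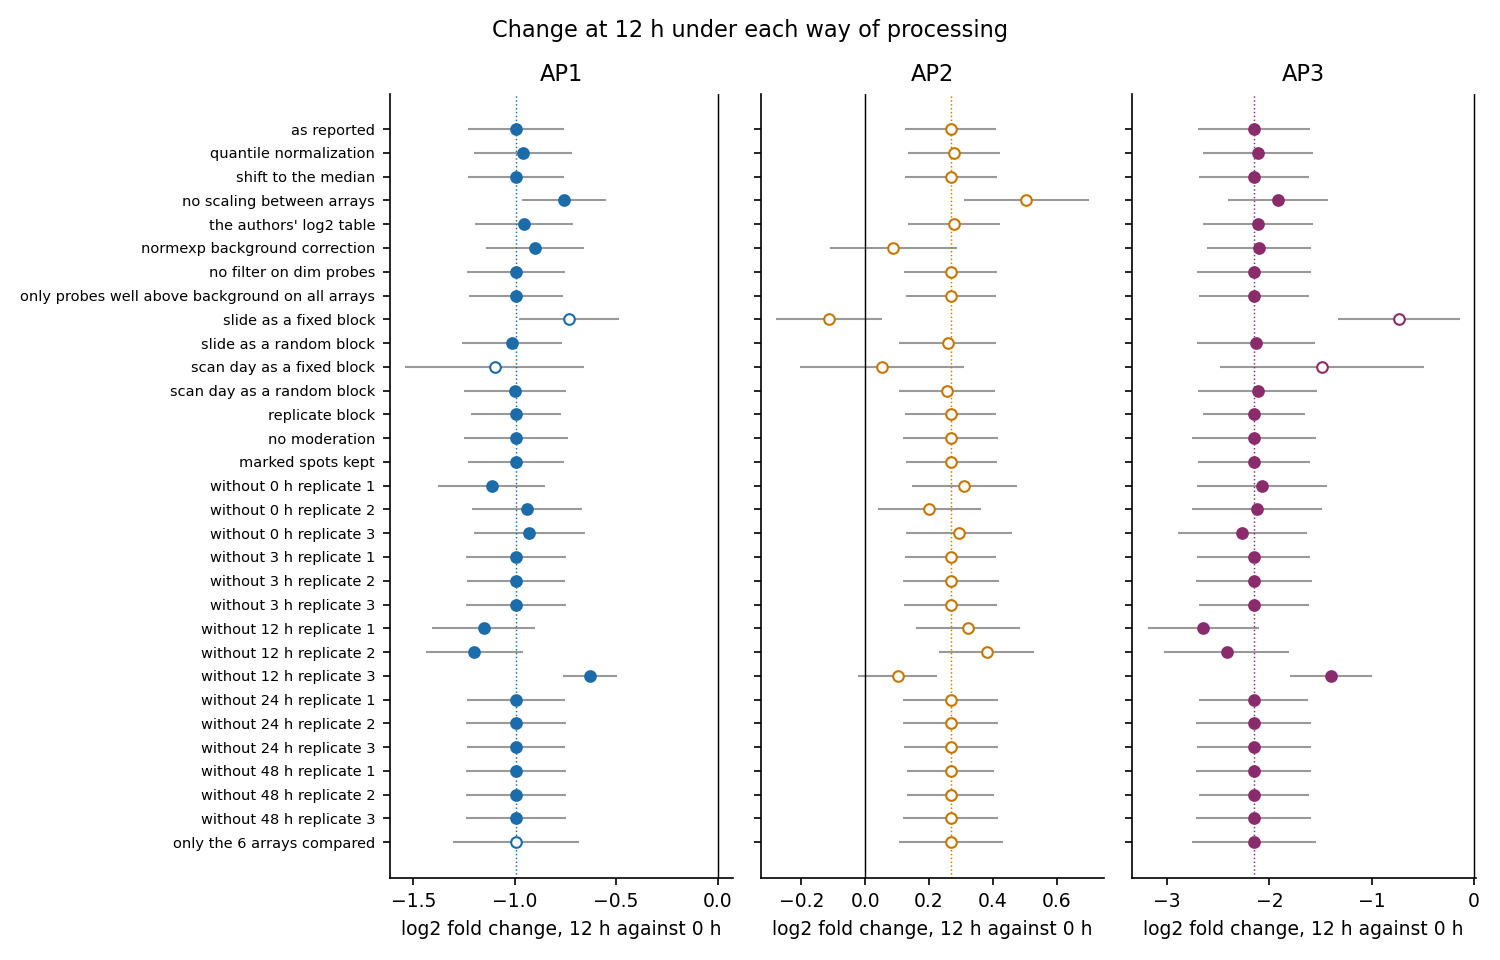
Log2 fold change at 12 h against 0 h (horizontal axes) of AP1, AP2 and AP3 as reported and under each of 30 alternatives (vertical axis), with SE bars; filled points have a limma adjusted p of at most 0.05 and dotted lines mark the reported values. AP3 ranged from −2.65 to −0.73 and AP1 from −1.20 to −0.63, always below 0, whereas AP2 ranged from −0.11 to 0.50 and was filled under none.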

How the data were processed

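The authors deposited spot intensities of 15 one-colour arrays, background-subtracted and detrended within each array by Agilent Feature Extraction 10.7.3.1 but not scaled between arrays, and 1 table of log2 values. In that deposited table, 99.99% of the values lay within 0.1 of quantile-normalized log2 intensities, and the scaling the authors used is not given in the sources used here.

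Control spots and spots marked as outliers (39 to 162 per array) were left out, repeated spots were averaged, and each array's 75th percentile (12.31 to 12.85 on the log2 scale) was subtracted. A probe was tested if some time point had it well above background on each of its 3 arrays, which 34449 probes met and 7202 did not. limma 3.58.1 in R 4.3.3 fitted time point over all 15 arrays, with moderation (prior degrees of freedom 2.55) and Benjamini-Hochberg adjustment over all tested probes. A call needed an adjusted p of at most 0.05 and a 2-fold change. Nothing in the labels says which plants the replicates came from, so p-values measure the spread between these samples. Their number limits the precision. The scripts were tested on simulated data.

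The members, the lists and the tests were chosen with earlier results of these data known. The genes named were the 3 members, the other organ-identity probes, GI, the flowering probes called, the markers and the 3 probes nearest to each member in each search. Names come from the study's tables, as the arrays carry none. Alternatives were other scalings (quantile, median, none, the authors' table), normexp background correction with offset 50, other filters, marked spots kept, slide, scan day or replicate number as blocks, no moderation, only the arrays compared, and each array left out in turn. Figures were drawn with matplotlib 3.10.9.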

Additional observations from a re-analysis of the deposited data

How the results depend on the processing

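Of 1201 values under alternatives, 1116 kept their direction and side of the threshold and 23 changed sign, none of which passed its test under either processing. Without scaling between arrays, AP2 at 3 h was −0.44 and no longer passed, and 1, 1 and 5 other flowering probes were called at 3, 12 and 48 h, while AP1 from 24 h to 48 h (0.079) and AP3 at 24 h (0.068) changed sign. The median of all tested probes then moved by 0.11, 0.26, 0.19 and 0.32 at 3, 12, 24 and 48 h, and the share of called probes that were higher went from 65.4%, 38.7%, 68.6% and 69.6% to 81.4%, 59.6%, 88.3% and 91.5%. With normexp background correction the medians were −0.22, −0.20, −0.12 and −0.22 and these shares 47.6%, 20.1%, 65.5% and 39.0%. AP1 then lost its time-course test (adjusted p 0.104), AP2 was −0.75 at 3 h (adjusted p 0.0619) and 0.35 at 48 h, neither passing. AP1 against AP2 was then 0.36, −0.32 and −0.64 at 3, 24 and 48 h and AP1 against AP3 turned to 0.12 at 3 h, and 1, 0 and 1 other flowering probes were called at these times. With slide as a fixed block, AP1 at 12 h was −0.73, AP3 at 12 h −0.73 and its step from 3 h −0.73, none passing, AP1 from 12 h to 24 h was 1.33 and passed, and 0 organ-identity probes at 12 h and 0 other flowering probes at 24 h were called. Values that changed sign were AP1 at 24 h (0.60), AP2 at 12 h (−0.11) and 24 h (−0.47), and AP3 at 3 h (0.00045) and 24 h (2.82). No value at 48 h could be fitted with that block. With scan day as a fixed block, AP1 lost its time-course test (adjusted p 0.135), and AP1 at 12 h (−1.10), AP2 at 3 h (−0.74, adjusted p 0.0501) and 48 h (0.35), AP3 at 12 h (−1.49) and its step from 3 h (−1.49) no longer passed, with 0 organ-identity probes called at 12 h and 0 other flowering probes at 24 h and 48 h, and AP3 at 3 h (0.00045) and 24 h (0.56) changed sign. Without moderation the time course of AP1 had an adjusted p of 0.0679 and 1 other flowering probe was called at 3 h, as was 1 with only probes well above background on all arrays. With only the 6 arrays compared, AP1 at 12 h (−0.99, adjusted p 0.0596) and the steps of AP3 from 3 h to 12 h (−1.71) and from 12 h to 24 h (2.04) no longer passed, and 3 organ-identity probes were called at 12 h. With slide or scan day as random blocks, correlations between arrays were 0.0667 and 0.0431, and with slide AP1 at 12 h was −1.01, so that 6 organ-identity probes were called, and AP3 at 24 h turned to 0.023.

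Leaving out single arrays gave ranges of 0.0114 to 0.0861 for the adjusted p of AP1 over the time course, −0.65 to −0.46, −1.20 to −0.63, −0.51 to −0.33 and −0.55 to −0.37 for AP1 at 3, 12, 24 and 48 h, and −0.67 to −0.10 and 0.24 to 0.81 for its steps to 12 h and to 24 h. AP1 lost its time-course test when replicate 2 or 3 of 0 h, or replicate 3 of 3 h, was left out, and both steps passed without 12-h replicate 2. The ranges were −0.66 to −0.52 and 0.46 to 0.67 for AP2 at 3 h and 48 h, −2.65 to −1.40 for AP3 at 12 h, and −2.20 to −0.95 and 1.29 to 2.54 for its steps to 12 h and to 24 h. The step of AP3 to 12 h was lost when replicate 1 or 2 of 3 h, or replicate 3 of 12 h, was left out, and that to 24 h when replicate 2 or 3 of 24 h was. Ranges that held a change of sign were −0.099 to 0.040 for AP1 from 24 h to 48 h, −0.13 to 0.15 for AP2 from 12 h to 24 h, −0.31 to 0.25 and −0.024 to 0.46 for AP3 at 24 h and 48 h, −0.091 to 0.19 for AP1 against AP2, −0.34 to 0.17 for AP1 against AP3 and −0.52 to 0.14 for AP2 against AP3 at 3 h, and −0.0086 to 0.59 for AP2 against AP3 at 24 h. Called were 4 to 6 organ-identity probes at 12 h and 1 to 2, 3 to 5, 1 to 2 and 2 to 3 other flowering probes at 3, 12, 24 and 48 h.

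Arrays with the same replicate number were not clearly more alike than arrays with different numbers. Deviations of arrays with the same number correlated at −0.271 to 0.379 (11 of 30 pairs over 0.1), and those with different numbers at −0.338 to 0.419 (18 of 60 pairs). These correlations cannot decide whether samples of the same number shared plants, which the labels do not give. With the replicate block AP1 at 12 h was −0.99 (adjusted p 0.00616), 5 organ-identity probes were called at 12 h, and no call of AP1, AP2 or AP3 changed.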
